A study of Mus musculus with 12 samples.

Results

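The JmjC histone demethylases described here are 10 genes: Kdm2a, Kdm2b, Kdm3a, Kdm3b, Kdm4a, Kdm4b, Kdm4c, Kdm5a, Kdm5b and Kdm6b. They were chosen by name out of 32544 genes in the table, and all 10 passed the filter on low counts that left 14285 genes for testing. Polyadenylated RNA was sequenced from bone marrow-derived macrophages (BMDMs) and from NIH/3T3 cells, an established mouse fibroblast line, with 3 libraries in each of 4 groups. BMDMs labelled WT came from LysMCre mice that lack the LDL receptor, and BMDMs labelled PHD2cko from mice of that same background with a conditional deletion of PHD2 (gene Egln1) driven by LysMCre, which acts in myeloid cells, both collected 24 h after seeding. The fibroblasts, starved in low serum beforehand, were exposed for 72 h to medium conditioned by BMDMs of either label, so in them PHD2cko describes the source of the medium and not the cells. All cultures received L929-conditioned medium. The labels mention normal oxygen and hypoxia without saying which one the sequenced cultures had, and they do not say whether the 3 libraries of a group came from separate animals, so p-values measure the spread between these libraries only.

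JmjC demethylases remove methyl groups from histone lysines and use molecular oxygen, iron and 2-oxoglutarate to do so. The prolyl hydroxylases of the PHD family, which mark the α subunits of the hypoxia-inducible factors (HIF) for degradation, depend on the same substrates. Kdm3a and Kdm4b belong to the textbook targets of HIF. Kdm3a and Kdm3b act on lysine H3K9, Kdm4a, Kdm4b and Kdm4c on H3K9 and H3K36, Kdm5a and Kdm5b on the activating mark H3K4, Kdm2a and Kdm2b on H3K36, and Kdm6b on the repressive mark H3K27.

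Kdm3a and Kdm5b were the members that passed the test in BMDMs, so the bases in front of them are shown. RefSeq's promoter table (build GRCm38.p6) matched 5 of the 10 members. Of the 250 bases before the RefSeq start, only those outside the gene's GENCODE boundaries are printed. Capitals mark the letters ACGTG or GCGTG, the core of the motif that HIF binds, found on either strand.
Kdm3a: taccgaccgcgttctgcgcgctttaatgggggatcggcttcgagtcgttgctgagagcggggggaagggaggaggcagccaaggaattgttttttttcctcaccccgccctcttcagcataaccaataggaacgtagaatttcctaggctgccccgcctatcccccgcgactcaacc
Kdm5b: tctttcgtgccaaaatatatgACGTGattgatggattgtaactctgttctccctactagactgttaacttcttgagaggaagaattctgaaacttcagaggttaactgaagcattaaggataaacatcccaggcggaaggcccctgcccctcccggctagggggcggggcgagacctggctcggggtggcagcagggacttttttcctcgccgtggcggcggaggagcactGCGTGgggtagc
The Kdm3a stretch (chr6:71632991-71633167, minus strand) is 177 bases long and holds 0 matches. The Kdm5b stretch (chr1:134559928-134560170, plus strand) is 243 bases long and holds 2 matches, which start 222 and 12 bases before the gene. Of 32851 promoters in the table, 27.8% held at least 1 match in a window of the Kdm3a length and 37.8% in one of the Kdm5b length, so a match is common in windows of this kind. These letters describe the sequence and are not measured binding sites, and their absence from a window says nothing of HIF.

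Library totals ran from 15516465 to 25199770 estimated counts, and no 2 libraries of a group agreed within counting noise. One library, 3T3 in WT medium replicate 1, stood apart from the others of its group, since the chi-square per degree of freedom between replicates reached 24.9 with it and 7.90 without it. Summed levels of 23 macrophage markers were 46275 to 47481 counts per 1e6 (CPM, here over the total count of a library) in WT BMDMs and 41771 to 43383 CPM in those labelled PHD2cko, so the libraries of the 2 labels did not overlap. None of the 23 was at 0 in a BMDM library, and 15 fibroblast markers summed to 1.81 to 6.03 CPM there. Taken singly, 14 of the 23 markers had a log2 fold change above 0 and 9 below, and 0 passed with edgeR (2 with an unadjusted p under 0.05, 1 in each direction), while DESeq2 and limma-voom called Trem2 higher. The part of the lower sum in the BMDM results was not tested. In 3T3 the fibroblast markers summed to 21985 to 24065 CPM in WT medium and to 29173 to 30066 CPM in PHD2cko medium, with 6 of the 14 tested higher and 1 lower in edgeR's test. In the fibroblasts the same macrophage list summed to 57.5 to 62.9 CPM in WT medium and to 258 to 1026 CPM in PHD2cko medium, with 0 of 23 markers at 0 in any library of the latter. Markers of neutrophils, B cells and dendritic cells summed to at most 4.79 CPM per list in any library, with the 5 B cell markers at 2.27 to 2.80 CPM in WT BMDMs and 3.44 to 4.28 CPM in those labelled PHD2cko. Of the 23 macrophage markers, 21 were higher with PHD2cko medium in edgeR's test. The macrophage share estimated from the list was 0.123 to 0.134% of the RNA in WT medium and 2.42, 0.609 and 2.16% in PHD2cko medium replicates 1, 2 and 3. Egln1 (chromosome 8, 124908587 to 124949324, GRCm38) is the gene targeted under the PHD2cko label. In CPM over the TMM-normalized library size, the scale of all single genes below, it stood at 55.8, 54.7 and 55.5 in WT BMDMs and at 68.8, 68.3 and 71.6 in BMDMs labelled PHD2cko. The target mRNA was therefore higher, not lower, under the knockout label (0.33 on the log2 scale with a standard error, SE, of 0.0527, adjusted p = 0.00203 from edgeR), and every direction below refers to libraries by their label. The table gives 1 value per gene, so reads over a deleted exon were not told apart, and the level of Egln1 does not check the labels.

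The first question was which demethylase mRNAs differed between BMDMs labelled PHD2cko and WT. Kdm5b and Kdm3a were higher under the PHD2cko label, 2 of the 10 members at an adjusted p under 0.05 (edgeR's quasi-likelihood test, Benjamini-Hochberg adjustment over all genes tested), and 0 were lower. Over all genes tested, 6.73% passed in either direction and 3.38% were higher. At an unadjusted p under 0.05, 5 members differed, where 19.0% of all genes did. For 7 members the libraries of the 2 labels did not overlap, 5 of them higher and 2 lower under PHD2cko, beside 31.9% of all genes. The members' median log2 fold change was 0.03 (all genes tested 0.0002). A gene's bulk level does not separate more RNA per cell from more cells that express it.

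**Figure D1:**
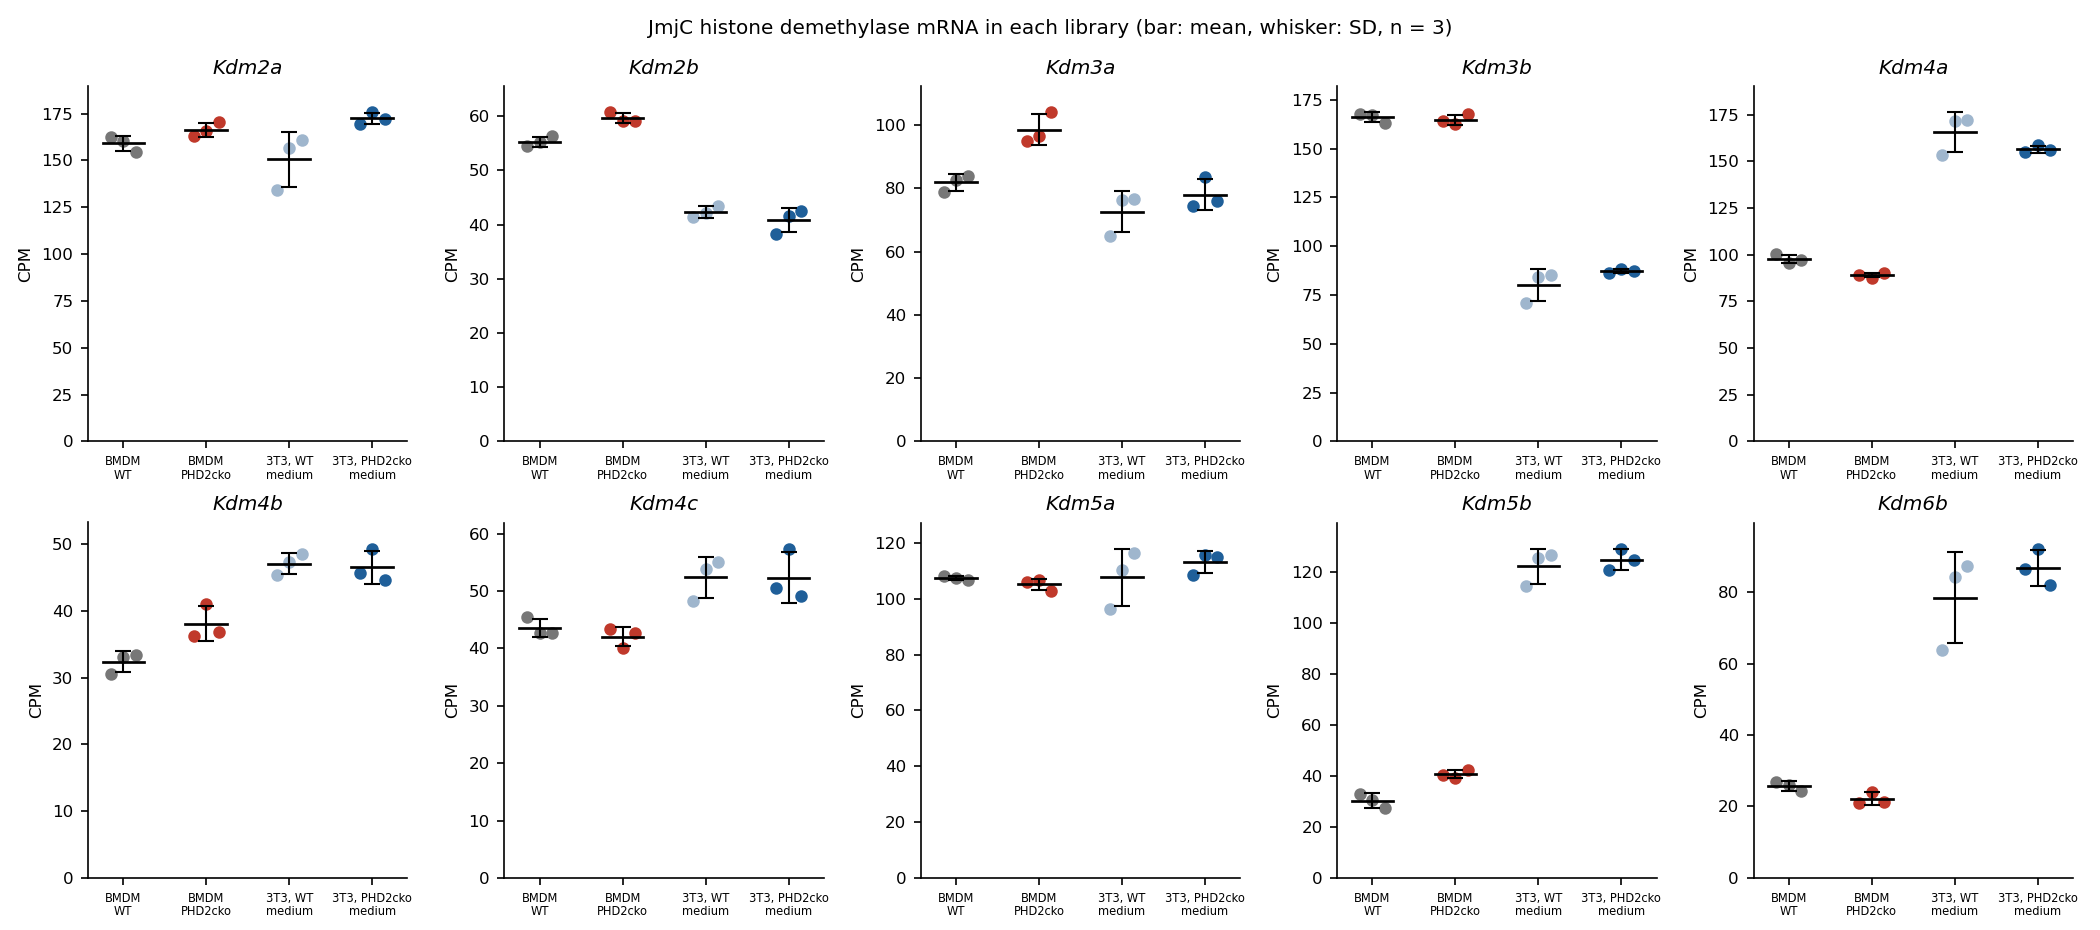
Each panel shows 1 demethylase, with CPM on the vertical axis from 0 and the 4 groups on the horizontal axis. Points are libraries, bars are means and whiskers are SD (n = 3). In the Kdm5b panel the BMDM libraries labelled PHD2cko lie at 39.3 to 42.3 CPM, above the WT libraries at 27.4 to 33.0 CPM, and the 6 fibroblast libraries lie far above both.

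Among the H3K4 demethylases, Kdm5b (ENSMUSG00000042207.17, chromosome 1, 134560171 to 134635285, plus strand), which removes methyl groups from H3K4 at active genes, had 33.0, 30.6 and 27.4 CPM in WT BMDMs and 40.1, 39.3 and 42.3 CPM under the PHD2cko label. All 3 libraries labelled PHD2cko lay above all 3 WT libraries. The fold was 1.34 (log2 fold change 0.42, SE 0.0703, 95% interval 0.27 to 0.58, adjusted p = 0.0027, edgeR). Kdm5b was the member with the largest difference in this comparison. Its paralog Kdm5a (chromosome 6, 120364124 to 120444574, plus strand) had 108.0, 107.5 and 106.6 CPM in WT and 106.0, 106.8 and 103.0 CPM under the label. These groups overlapped, and the 95% interval of the log2 fold change ran from -0.16 to 0.10 (adjusted p = 0.878, edgeR). Within a library, Kdm5b had 0.282 ± 0.0243 counts per count of Kdm5a in WT and 0.386 ± 0.0221 under the label (SD, n = 3 each), a ratio that library size does not enter.

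Among the H3K9 demethylases, Kdm3a (ENSMUSG00000053470.13, chromosome 6, 71588972 to 71632990, minus strand), which erases mono- and dimethylation, had 78.9, 82.7 and 83.9 CPM in WT BMDMs and 95.1, 96.4 and 104.0 CPM under the PHD2cko label. The groups did not overlap, and the fold was 1.20 (log2 fold change 0.27, SE 0.0685, 95% interval 0.12 to 0.42, adjusted p = 0.0345, edgeR). The call was lost in 7 of the 12 fits that left out 1 library, those without any one of the 6 BMDM libraries (adjusted p from 0.0682 to 0.146) and that without 3T3 in PHD2cko medium replicate 3 (adjusted p = 0.0527). Kdm3b (chromosome 18, 34777047 to 34838660, plus strand), its paralog, had 167.9, 167.2 and 163.1 CPM in WT and 164.1, 162.7 and 167.8 CPM under the label. These overlapped, with a 95% interval of the log2 fold change from -0.14 to 0.12 (adjusted p = 0.980, edgeR). The count of Kdm3a per count of Kdm3b was 0.493 ± 0.0223 in WT and 0.597 ± 0.0207 under the label (SD, n = 3 each).

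The Kdm4 genes, which act on H3K9 and H3K36, did not share a sign in BMDMs. Kdm4b (ENSMUSG00000024201.12, chromosome 17, 56326062 to 56402870, plus strand) had 30.6, 33.1 and 33.5 CPM in WT BMDMs and 36.2, 41.1 and 36.9 CPM under the PHD2cko label, without overlap. Its log2 fold change of 0.23 (SE 0.064) just missed the threshold (adjusted p = 0.0502, edgeR) and passed it with DESeq2's Wald test (adjusted p = 0.0492), so this value lies at the line. Kdm4a (chromosome 4, 118136957 to 118180043, minus strand) had 100.2, 95.8 and 97.0 CPM in WT and 89.3, 87.7 and 90.0 CPM under the label. Every Kdm4a library labelled PHD2cko lay below the WT libraries, with a log2 fold change of -0.13 that did not pass (adjusted p = 0.151, edgeR). Kdm4c (chromosome 4, 74242497 to 74405860, plus strand) overlapped between the labels, at 42.6 to 45.4 and 40.1 to 43.3 CPM (log2 fold change -0.05, adjusted p = 0.803, edgeR). The count of Kdm4b per count of Kdm4a was 0.332 ± 0.0231 in WT and 0.428 ± 0.0347 under the label (SD, n = 3 each).

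The H3K36 demethylases Kdm2a and Kdm2b, the latter a subunit that brings a variant Polycomb complex 1 (PRC1) to CpG islands, differed little in BMDMs. Kdm2b (chromosome 5, 122870665 to 122989823, minus strand) had 54.5, 55.2 and 56.3 CPM in WT and 60.7, 59.2 and 59.1 CPM under the label, which did not overlap but did not pass (log2 fold change 0.11, adjusted p = 0.227, edgeR). Kdm2a (chromosome 19, 4314419 to 4398285, minus strand) had 154.5 to 162.6 CPM in WT and 163.1 to 170.4 CPM under the label (log2 fold change 0.07, adjusted p = 0.661, edgeR). Kdm6b (chromosome 11, 69398508 to 69413675, minus strand), the H3K27 demethylase that macrophages induce on inflammatory stimulation, had 26.9, 26.0 and 24.3 CPM in WT and 21.0, 24.2 and 21.4 CPM under the label. All Kdm6b libraries labelled PHD2cko lay below those labelled WT, and the log2 fold change of -0.22 (SE 0.119) did not pass (adjusted p = 0.371, edgeR). Exons of Kdm2b, Kdm3b, Kdm5a and Kdm6b overlap those of other genes on the opposite strand, by up to 3292 bases for Kdm3b with Gm26538, 627 for Kdm2b with Rnf34, 251 for Kdm5a with Ccdc77 and 149 for Kdm6b with Kdm6bos. Kdm2b also overlaps Gm44574 on its own strand, by up to 124 bases. Whether the counting used strand is not given in the sources used here, so reads of these pairs may be shared.

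**Figure D2:**
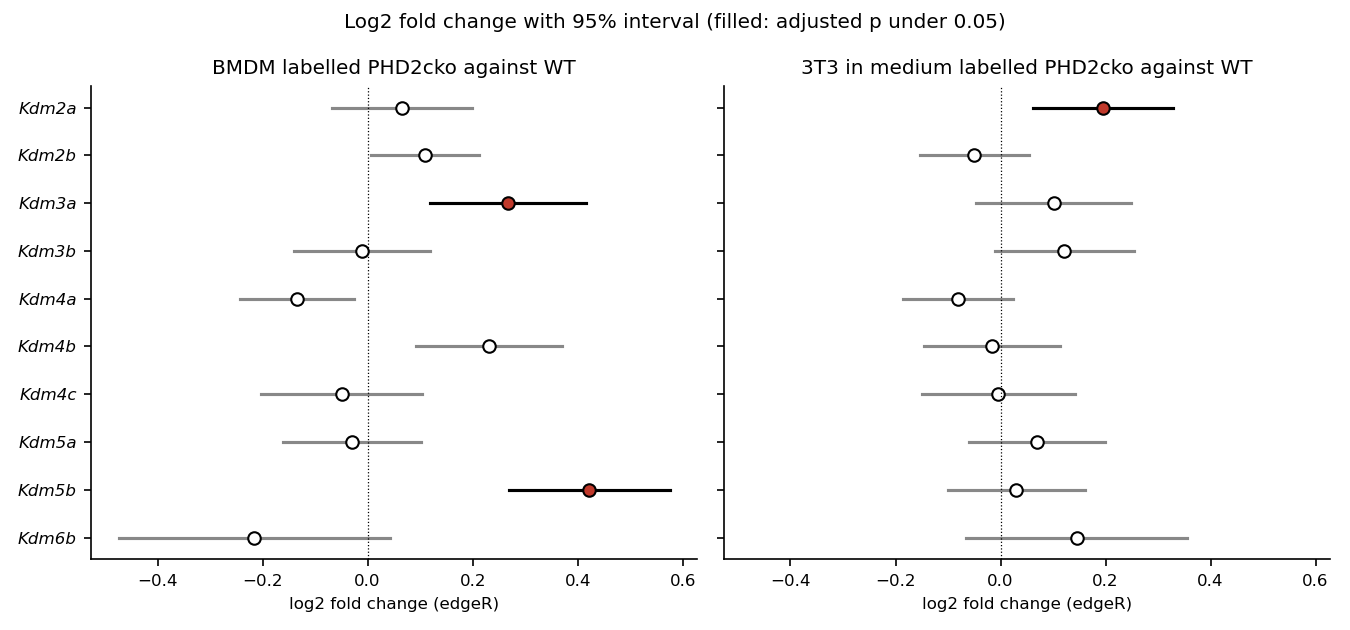
Log2 fold change on the horizontal axis for each demethylase on the vertical axis, in BMDMs (left) and in 3T3 fibroblasts (right), with 95% intervals as lines and filled points for an adjusted p under 0.05 (edgeR). The filled points are Kdm3a (0.27) and Kdm5b (0.42) on the left and Kdm2a (0.20) on the right.

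When the 6 BMDM libraries were fitted without the fibroblasts, 5 members passed: Kdm3a, Kdm4b and Kdm5b were higher and Kdm4a and Kdm6b lower under the PHD2cko label. Of all genes tested in that fit 20.6% passed, against 6.73% with all 12 libraries. Without 3T3 in WT medium replicate 1, 4 members passed, Kdm4a and Kdm4b in addition to Kdm3a and Kdm5b, and the share of all genes that passed was 13.0%. Kdm5b passed in each of the 7 other settings and the 12 fits without 1 library, with log2 fold changes of 0.35 to 0.49 in the latter.

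The second question was whether fibroblasts differed in these mRNAs by the label of the medium. Kdm2a alone passed the test, 1 of 10 members where 15.7% of all genes tested passed and 8.93% were higher, so the members' share did not exceed the background. At an unadjusted p under 0.05 it was also 1 member, beside 29.2% of all genes, and 2 members (Kdm2a and Kdm3b) did not overlap between the media, beside 31.9%. Kdm2a had 134.1, 156.6 and 161.1 CPM in WT medium and 169.5, 175.7 and 172.1 CPM in PHD2cko medium. The lowest of these was the library that stood apart. The log2 fold change was 0.20 (SE 0.061, adjusted p = 0.048, edgeR), and 0.14 without that library (adjusted p = 0.0083). The call was lost in 10 of 12 fits without 1 library (adjusted p from 0.0559 to 0.120): those without any one of the 6 BMDM libraries, without 3T3 in WT medium replicate 2 and without any one of the 3 libraries in PHD2cko medium. It was also lost in 3 of 8 other settings: with no filter beyond 1 count (adjusted p = 0.0698), with the 6 fibroblast libraries alone (adjusted p = 0.156) and with the replicate block (adjusted p = 0.0574). With the estimated macrophage share subtracted from each fibroblast library, Kdm2a had a log2 fold change of 0.21 (adjusted p = 0.0349).

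The members that had been higher in BMDMs gave no call in the fibroblasts. Kdm5b had 114.3, 125.3 and 126.5 CPM in WT medium and 120.6, 128.9 and 124.6 CPM in PHD2cko medium, which overlap (log2 fold change 0.03, 95% interval -0.10 to 0.16, adjusted p = 0.786, edgeR). Kdm3a had 65.0, 76.3 and 76.5 CPM in WT medium and 74.5, 83.5 and 76.0 CPM in PHD2cko medium, which overlap as well (log2 fold change 0.10, 95% interval -0.05 to 0.25, adjusted p = 0.360, edgeR). Its lowest value was in the library that stood apart, and the log2 fold change was 0.048 without that library and 0.051 without 3T3 in PHD2cko medium replicate 2. Kdm6b had 63.8, 84.1 and 87.2 CPM against 86.3, 92.1 and 81.9 CPM, again with its lowest value in the library that stood apart (log2 fold change 0.14, adjusted p = 0.357, edgeR, and 0.039 without that library). The other 6 members had log2 fold changes from -0.08 (Kdm4a) to 0.12 (Kdm3b). Without the library that stood apart, Kdm4a was also called (log2 fold change -0.11, adjusted p = 0.0141), and 2 of 10 members passed, where 19.0% of all genes did.

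The difference between the label's effect in fibroblasts and that in BMDMs was tested itself, as an interaction. Kdm5b passed, 1 of 10 members beside 12.3% of all genes tested, with a difference of -0.39 on the log2 scale (fibroblasts minus BMDMs, SE 0.0927, adjusted p = 0.0151, edgeR). For Kdm3a the same difference was -0.17 with a 95% interval of -0.38 to 0.04 (adjusted p = 0.311, edgeR), and it reached -0.22 (adjusted p = 0.041) without 3T3 in WT medium replicate 1. The rise of Kdm3a was thus not shown to differ between the cell types in the fit of all 12 libraries. For Kdm4b the difference was -0.25 (adjusted p = 0.0904, edgeR) and for Kdm6b 0.36 (adjusted p = 0.163, edgeR).

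**Figure D3:**
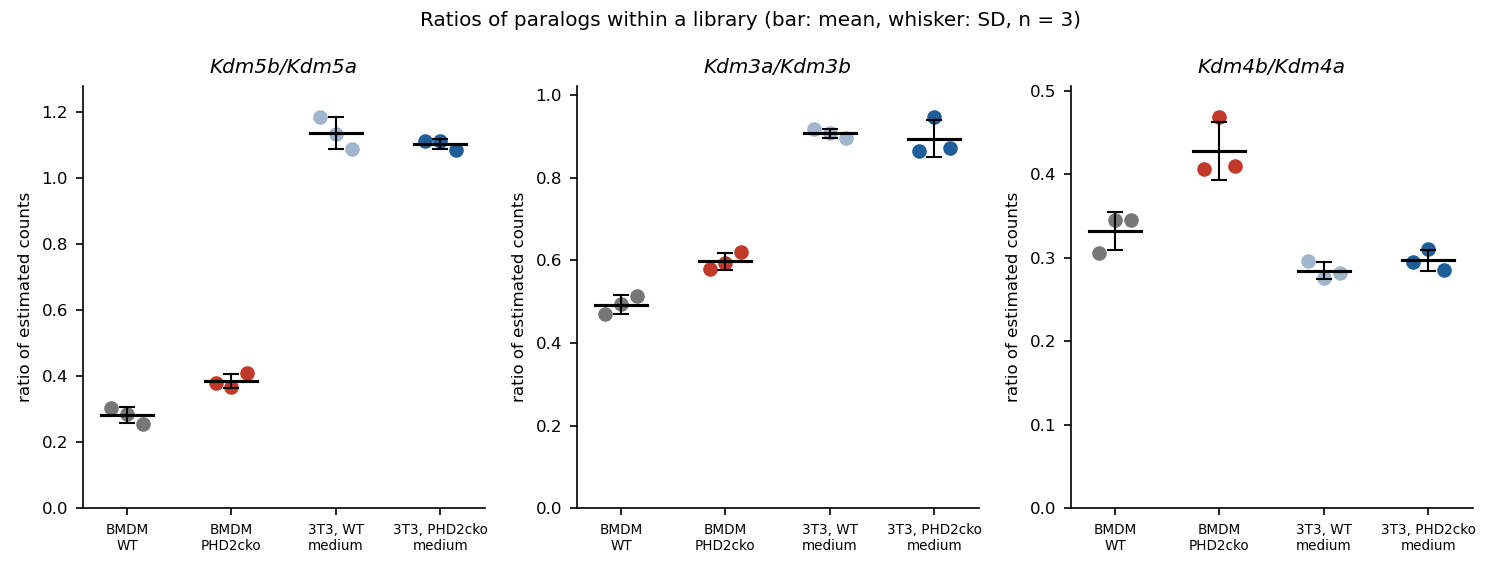
Ratio of estimated counts of 2 paralogs within each library on the vertical axis from 0, for the 4 groups on the horizontal axis. Points are libraries, bars are means and whiskers are SD (n = 3). All 3 ratios are higher in the 3 BMDM libraries labelled PHD2cko than in the 3 labelled WT, and overlap between the media in fibroblasts, where Kdm5b per Kdm5a lies at 1.14 and 1.10 on average.

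The third comparison set WT BMDMs against 3T3 in WT medium, where cell type, culture time, starvation and mouse background differ together and cannot be told apart. Of the 10 members 8 differed, beside 85.3% of all genes tested, with 3 higher in BMDMs and 5 lower. The median of all genes tested was -0.08 on the log2 scale (BMDM minus 3T3). Kdm5b had the largest difference, with 30.3 ± 2.81 CPM in BMDMs and 122.0 ± 6.76 CPM in 3T3 (SD, n = 3 each; log2 fold change -2.01, adjusted p = 4.8e-12, edgeR). Kdm6b had 25.7 ± 1.32 CPM in BMDMs and 78.4 ± 12.7 CPM in 3T3 (log2 fold change -1.61, adjusted p = 8.1e-09, edgeR). Kdm3b was the member most in excess in BMDMs, at 166.1 ± 2.58 against 80.1 ± 8.07 CPM (log2 fold change 1.05, adjusted p = 1.7e-09, edgeR).

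The Kdm4 genes were all lower in BMDMs, by log2 fold changes of -0.76 (Kdm4a), -0.54 (Kdm4b) and -0.27 (Kdm4c). Kdm2b was higher there (0.39, adjusted p = 4.7e-06, edgeR). Kdm3a was higher by 0.17 (adjusted p = 0.0332, edgeR), a call that was lost without 3T3 in WT medium replicate 1 (0.09, adjusted p = 0.108) and without BMDM WT replicate 2 (0.16, adjusted p = 0.0777) or 3 (0.15, adjusted p = 0.0934). It was also lost with at least 10 counts required in every library (0.11, adjusted p = 0.149) and with no filter beyond 1 count (0.15, adjusted p = 0.0749). Kdm2a (0.08, 95% interval -0.05 to 0.21) and Kdm5a (-0.0050, 95% interval -0.14 to 0.13) did not pass, and Kdm5a passed without 3T3 in WT medium replicate 1 (-0.09, adjusted p = 0.0439). Within the H3K4 pair, the cell types thus differed in Kdm5b and not detectably in Kdm5a when all 12 libraries were fitted.

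Levels between members were compared per kilobase of all exons of a gene merged. In WT BMDMs Kdm4a was highest at 16.9 ± 0.398 CPM per kilobase, followed by Kdm3b (11.8), Kdm2a (11.0), Kdm3a (9.95), Kdm5a (7.58), Kdm4c (7.48), Kdm4b (6.61), Kdm2b (5.09), Kdm6b (3.70) and Kdm5b (1.83 ± 0.170; SD, n = 3). Of the neighbours in this order, Kdm5a and Kdm4c alone overlapped between libraries, and the highest mean was 9.23 times the lowest. In 3T3 in WT medium Kdm4a again came first (28.6 ± 1.85 CPM per kilobase), with Kdm6b at 11.3 ± 1.83 and Kdm2b last at 3.89 ± 0.0966. From Kdm6b through Kdm2a, Kdm4b, Kdm4c, Kdm3a and Kdm5a down to Kdm5b (7.37 ± 0.409) each neighbour overlapped the next. Per kilobase of the longest coding transcript instead, Kdm3b came first in BMDMs (26.1) ahead of Kdm4a (20.9), and Kdm6b fell to rank 7 in 3T3, so the order depends on which length is used, while Kdm5b stayed last in WT BMDMs and Kdm2b in 3T3 in WT medium. In BMDMs labelled PHD2cko, Kdm5b was last by merged exons (2.45 CPM per kilobase) and Kdm6b by the longest coding transcript (3.33, against 4.65 for Kdm5b).

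**Figure D4:**
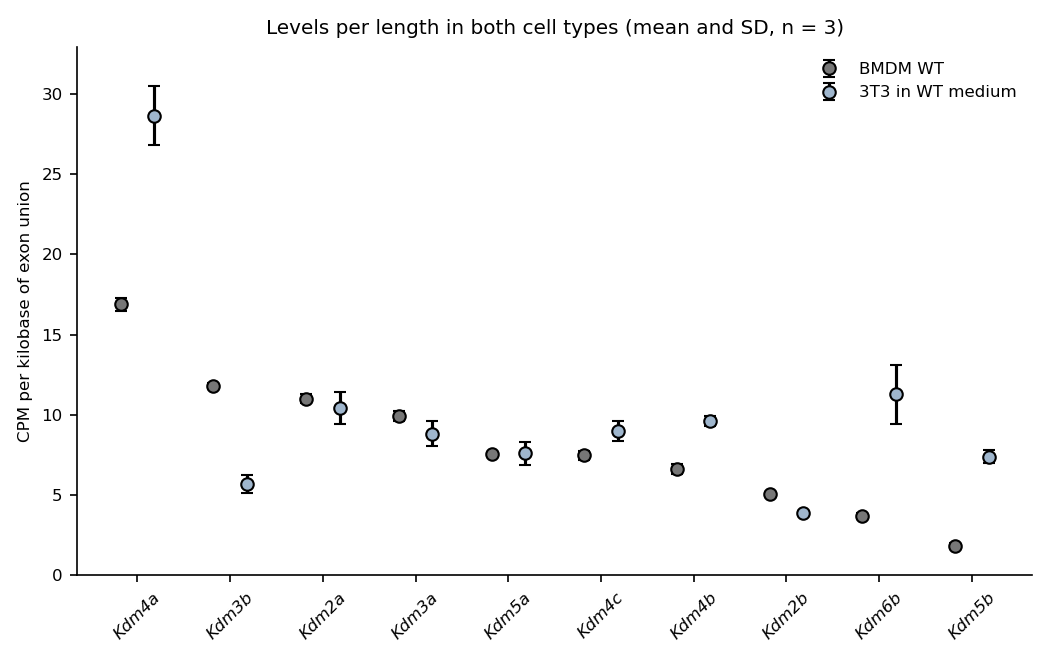
Mean CPM per kilobase of merged exons on the vertical axis from 0, for each demethylase on the horizontal axis, in WT BMDMs and in 3T3 in WT medium, with SD as whiskers (n = 3 each). Kdm4a leads in both cell types, at 16.9 and 28.6 CPM per kilobase, and Kdm5b is last in BMDMs at 1.83.

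Genes that share the members' chemistry or write the marks that they erase were counted in lists and are read against the shares of all genes given above. Of 21 further JmjC genes 20 were tested, Kdm4d having at most 7 counts in any library. In BMDMs 0 of these 20 passed with edgeR, DESeq2 or limma-voom, and 3 had an unadjusted p under 0.05. In fibroblasts Tyw5, a JmjC enzyme that modifies transfer RNA, was lower (11.9 ± 0.559 CPM in WT and 9.66 ± 0.525 CPM in PHD2cko medium, log2 fold change -0.30, adjusted p = 0.041, edgeR), a call lost in 10 of 12 fits without 1 library, also in that without the library that stood apart (-0.24, adjusted p = 0.0944). The Tyw5 call was also lost in 5 of 8 other settings: with DESeq2's Wald test (-0.29, adjusted p = 0.0842), with no filter beyond 1 count (adjusted p = 0.0696), with the 6 fibroblast libraries alone (adjusted p = 0.0877), with the replicate block (adjusted p = 0.0647) and with the macrophage share subtracted (-0.29, adjusted p = 0.0572). For the flavin-dependent demethylases Kdm1a and Kdm1b, 0 of 2 passed in BMDMs with any of the 3 tools (0 with an unadjusted p under 0.05). In fibroblasts 0 of 2 passed with edgeR (1 with an unadjusted p under 0.05), and Kdm1a passed with DESeq2 and limma-voom.

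The TET enzymes, which oxidize methylcytosine in DNA with the same cofactors, gave 0 of 3 calls in BMDMs with any tool (0 with an unadjusted p under 0.05). In fibroblasts they gave 0 of 3 with edgeR (2 with an unadjusted p under 0.05) and 0 with limma-voom, and 1, Tet3, with DESeq2. Of 15 genes of 2-oxoglutarate supply and its antagonists, 0 passed in BMDMs and 0 in fibroblasts with any of the 3 tools, with 3 at an unadjusted p under 0.05 in each. Of 9 partners of Kdm2b in PRC1, 0 passed in BMDMs with any tool (1 with an unadjusted p under 0.05). In fibroblasts 1 passed with edgeR (4 with an unadjusted p under 0.05), limma-voom added Usp7, and DESeq2 added Usp7 and Bcorl1. Rybp, a subunit of variant PRC1, was higher, at 74.0 ± 1.20 CPM in WT and 86.3 ± 0.868 CPM in PHD2cko medium (SD, n = 3 each; log2 fold change 0.22, adjusted p = 0.0066, edgeR), also in each of 8 other settings and 12 fits without 1 library.

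Of 21 methyltransferases for the 4 marks, 1 passed with edgeR in BMDMs and 1 in fibroblasts (3 and 4 with an unadjusted p under 0.05). DESeq2 and limma-voom added Setdb2 in BMDMs, and DESeq2 added Setd1b in fibroblasts. Suv39h2 (ENSMUSG00000026646.16, chromosome 2), which writes the trimethylation of H3K9, had 8.44, 9.56 and 8.58 CPM in WT BMDMs and 3.88, 3.62 and 3.52 CPM under the PHD2cko label. Its 3 libraries labelled PHD2cko all lay under the WT libraries, on 53 to 67 counts against 130 to 158 (log2 fold change -1.27, SE 0.130, adjusted p = 6.4e-05, edgeR). Its effect differed between the cell types (difference of 1.46 on the log2 scale, adjusted p = 0.000308, edgeR), and in fibroblasts it had 5.48 ± 0.487 and 6.23 ± 0.930 CPM. In fibroblasts Whsc1 (current symbol Nsd2), which writes H3K36 dimethylation, was higher with PHD2cko medium, at 124.3, 128.4 and 136.6 CPM against 82.7, 101.4 and 102.4 CPM (log2 fold change 0.44, adjusted p = 0.00148, edgeR). Whsc1 kept its call in each of 8 other settings, subtraction of the macrophage share among them, and in 12 of 12 fits without 1 library. The macrophage and fibroblast markers moved in the same comparison, and their part in this rise was not tested.

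**Figure D5:**
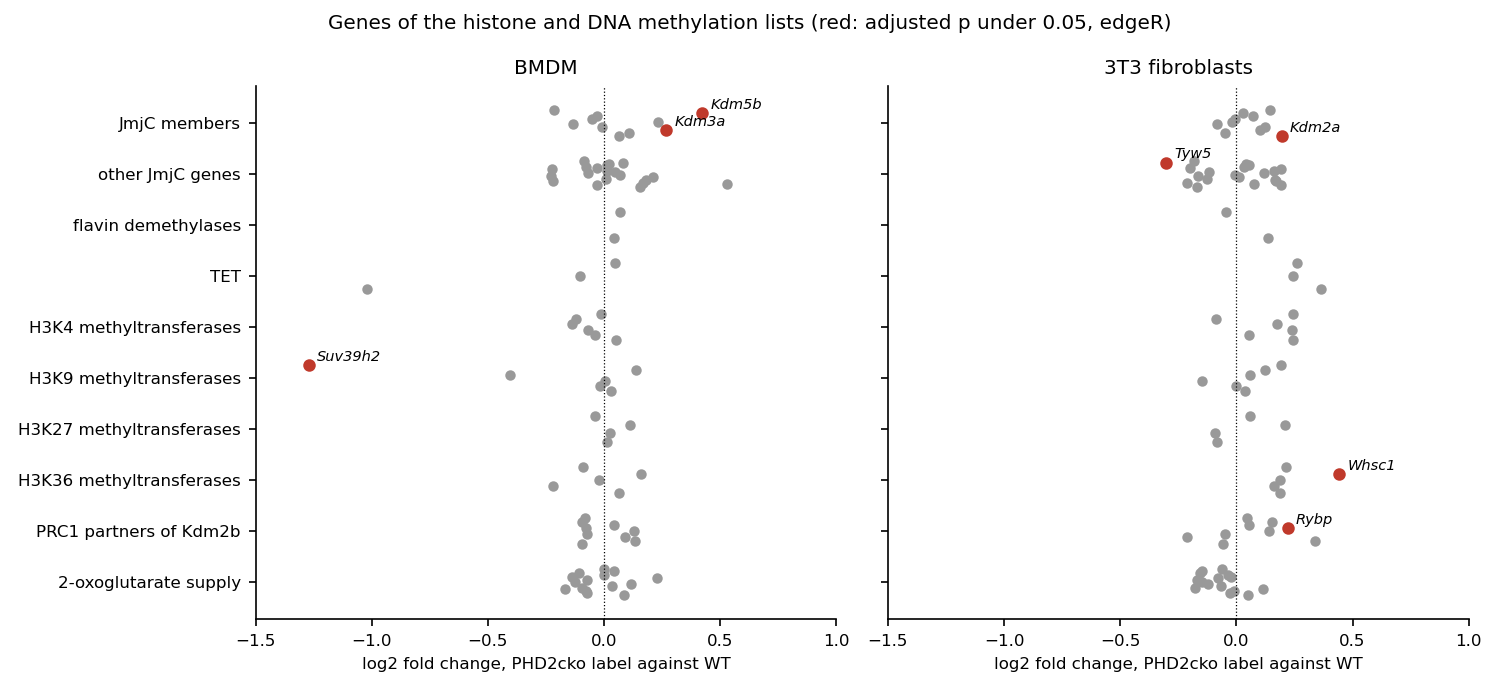
Log2 fold change on the horizontal axis for the genes of each list on the vertical axis, in BMDMs (left) and 3T3 fibroblasts (right). Red points have an adjusted p under 0.05 in edgeR and are named. Suv39h2 at -1.27 lies outside the range of the members, which runs from -0.22 to 0.42 in BMDMs.

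The genes whose levels followed each called member most closely were found from Pearson's r of log2 CPM over the 12 libraries after each cell type's mean was subtracted. For Kdm5b these included Tfrc (r = 0.95), the transferrin receptor, and Pcdhb16 (0.95). For Kdm3a they were Sntb2 (r = 0.93), Uba6 (0.92) and Plxna3 (0.92). The points share their library and its depth, and the values describe likeness in these libraries only. The label's difference was left in the points, so these genes were found partly through the contrast that called the members. Tfrc had a log2 fold change of 0.79 in BMDMs (adjusted p = 2.8e-06, edgeR) and 0.08 in fibroblasts. In BMDMs Sntb2 also passed edgeR's test (adjusted p = 0.0280), while Pcdhb16 (0.379), Uba6 (0.0772) and Plxna3 (0.0534) did not.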

How the data were processed

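RNA of 12 libraries in 4 groups was measured as estimated counts per gene. The authors deposited these estimated counts as whole numbers, made with kallisto on GRCm38 per the labels and summed to genes, without normalization. How the estimates became whole is not given in the sources used here. Tests used edgeR 4.0.16 in R 4.3.3: filterByExpr over the 4 groups (14285 of 32544 genes kept), TMM, the quasi-likelihood F test on all 12 libraries, two-sided. P-values were adjusted by Benjamini-Hochberg across the genes kept and called under 0.05. An exact permutation test of 3 against 3 libraries cannot go below 0.1. The script was tested on simulated counts without an outlying library. The changes put in were larger than those of the members called in BMDMs or fibroblasts. This checks the code and not those calls. Intervals are at 95%. CPM of single genes are over the TMM-normalized library size and marker sums over the total count, and 0 columns were left unmapped. Positions come from GENCODE M21 on GRCm38, and 4 list genes were matched by older symbols. The macrophage share of a fibroblast library was its summed marker level divided by that of BMDMs with the same label. The members and lists were chosen with earlier results of these data known. Named are the members, Egln1, list genes that passed in BMDMs or fibroblasts and, for each member called in BMDMs, the 3 genes most like it, of which 1 is not reported here. List genes that passed edgeR's interaction test were named as well. Genes that passed with another tool only, and list genes named in the comparison of the cell types, were named after their values were seen. Kdm4d, Hr and Tet1 were named for their low counts. The alternatives were DESeq2 1.42.0 (size factors, Wald test), limma 3.58.1 with voom, which the authors used, a filter at 10 counts per library or at 1 count in all, separate fits of the cell types, replicate number as block, subtraction of the macrophage share and each library left out. The longest coding transcript as length was added after the data were seen.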

Additional observations from a re-analysis of the deposited data

Results flagged for a closer look

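The effect of the PHD2cko label on Kdm5b differed between the cell types, by -0.39 on the log2 scale (fibroblasts minus BMDMs, standard error 0.0927, adjusted p = 0.0151 from edgeR's interaction test). Kdm5b rose by 0.42 in BMDMs, where all 3 libraries labelled PHD2cko lay above the 3 labelled WT, and had a log2 fold change of 0.03 in fibroblasts, where the libraries overlapped. The test passed in each of 6 other settings and in 12 of 12 fits without 1 library, with differences from -0.46 to -0.32. In the WT groups Kdm5b stood at 30.3 ± 2.81 CPM in BMDMs and 122.0 ± 6.76 CPM in 3T3 (SD, n = 3 each).

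The same test was past the threshold for 2 of 20 further JmjC genes, 1 of 21 methyltransferases, 2 of 9 partners of Kdm2b in PRC1 (22.2%) and 1 of 15 genes of 2-oxoglutarate supply, beside 12.3% of all genes. DESeq2 and limma-voom gave these same counts, except that DESeq2 added Nsd1 among the methyltransferases. For the flavin-dependent demethylases (0 of 2) and the TET enzymes (0 of 3) none passed with any of the 3 tools, and 0 had an unadjusted p under 0.05 with edgeR. For Tet1 this rests on 1 to 7 counts per BMDM library. Suv39h2 had a difference of 1.46 on the log2 scale (fibroblasts minus BMDMs, adjusted p = 0.000308, edgeR), past the threshold in each of 6 other settings and 12 of 12 fits without 1 library. Kdm7a had a difference of 0.42 (adjusted p = 0.0274, edgeR), past it in 6 of 6 other settings and in 6 of 12 fits without 1 library (0.33 to 0.49 over the 12). Jarid2 had a difference of 0.39 (adjusted p = 0.0408, edgeR), past it in 4 of 6 other settings, not with the replicate block (adjusted p = 0.0618) or with no filter beyond 1 count (adjusted p = 0.0535), and in 4 of 12 fits without 1 library (0.34 to 0.47 over the 12). Both genes had their lowest value of the 3 libraries in WT medium in replicate 1, which stood apart: Kdm7a had 43.7, 55.3 and 57.4 CPM and Jarid2 had 14.2, 17.0 and 16.2 CPM. Without that library the differences were 0.33 for Kdm7a (adjusted p = 0.00164) and 0.34 for Jarid2 (adjusted p = 0.0392), and both passed.

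Among the PRC1 partners, Rybp had a difference of 0.30 (fibroblasts minus BMDMs, adjusted p = 0.0129, edgeR), past the threshold in each of 6 other settings and 12 of 12 fits without 1 library. Usp7 had a difference of 0.25 (adjusted p = 0.0378, edgeR), past it in 4 of 6 other settings, not with the replicate block (adjusted p = 0.0617) or with no filter beyond 1 count (adjusted p = 0.0775), and in 6 of 12 fits without 1 library (0.22 to 0.29 over the 12). Fh1, the fumarate hydratase, had a difference of 0.28 (adjusted p = 0.0255, edgeR), past it in 6 of 6 other settings and in 5 of 12 fits without 1 library (0.25 to 0.35 over the 12). For Egln1, whose mRNA was higher in BMDMs under the PHD2cko label, the difference was -0.27 (adjusted p = 0.0319, edgeR), past the threshold in 4 of 6 other settings, not with the replicate block (adjusted p = 0.0547) or with no filter beyond 1 count (adjusted p = 0.0640), and in 4 of 12 fits without 1 library (-0.30 to -0.19 over the 12).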

How the results depend on the processing

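In BMDMs 5 members passed with the 6 BMDM libraries alone (20.6% of all genes), and 1 to 4 without 1 library (3.63 to 13.0%). In fibroblasts 0 passed without the filter (8.57% of all genes), with the 6 fibroblast libraries alone (6.82%) and with the replicate block (13.7%), and 0 to 2 without 1 library (8.70 to 19.0% of all genes). Without 1 library, 1 to 2 members passed for a differing label effect (8.77 to 16.0%). Replicate numbers did not pair the libraries (same-number correlations -0.02 to 0.02 in BMDMs and -0.05 to 0.02 in fibroblasts). The block gave 3 members in BMDMs, Kdm4b added (5.71% of all genes), and DESeq2's Wald test also gave 3 (7.88%). Of 994 comparisons of single log2 fold changes with another setting or without 1 library, 331 and 552 kept direction and call. A call was lost in 16 and 65 of them and gained in 5 and 7. The sign changed in 6 and 12, and none of these had been called. Kdm4c in fibroblasts (-0.0043) became 0.0064 with DESeq2's size factors and 0.0064 with its Wald test, 0.0033 with at least 10 counts, 0.0070 with the cell type alone and 0.015 with the macrophage share subtracted, which also moved Kdm4b to 0.0020. Without 1 library, log2 fold changes ran across 0 for Kdm2a (-0.0065 to 0.13) and Kdm5a (-0.086 to 0.050) between cell types, Kdm3b in BMDMs (-0.023 to 0.0011), Kdm4b (-0.059 to 0.014) and Kdm4c (-0.073 to 0.040) in fibroblasts and the Kdm4c label effect in fibroblasts minus that in BMDMs (-0.025 to 0.090). The cause was not tested. Each member had at least 346 counts in every library, and 3 libraries a group limit the precision of each value.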

Other observations

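Of 20 further JmjC genes tested, 16 differed between WT BMDMs and 3T3 in WT medium (11 higher and 5 lower in BMDMs, edgeR), a share close to that of the 10 members (8, with 3 higher and 5 lower) and to the 85.3% of all genes, of which 5765 were higher and 6417 lower. The genes named here were chosen after their values were seen. Kdm5c and Kdm5d, the X- and Y-linked paralogs of Kdm5b, were higher in BMDMs by 0.24 and 0.69 on the log2 scale, the direction opposite to Kdm5b. Kdm6a, the X-linked paralog of Kdm6b, was likewise higher in BMDMs (0.79), at 51.5 ± 0.562 CPM against 29.7 ± 2.03 CPM (SD, n = 3 each). Kdm7a, which acts on H3K9 and H3K27, had 156.2 ± 6.21 CPM in BMDMs and 52.1 ± 7.39 CPM in 3T3. Each of Kdm5c, Kdm5d, Kdm6a and Kdm7a had its lowest value in WT medium in replicate 1, the library that stood apart. Kdm5c had 82.8, 100.7 and 99.7 CPM there and in replicates 2 and 3, and Kdm5d had 37.7, 45.5 and 44.0 CPM. The comparison without that library is not given for these genes.

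Kdm7a and Jarid2, a JmjC protein of Polycomb complex 2 without known demethylase activity, both lay lower in each BMDM library labelled PHD2cko than in any labelled WT, with log2 fold changes of -0.22 and -0.22 that did not pass (adjusted p = 0.113 each, edgeR). Setdb2, an H3K9 methyltransferase, had a log2 fold change of -0.40 in BMDMs, which passed with DESeq2 and limma-voom and not with edgeR.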
